A study of Ovis aries with 15 samples.

Results

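The immediate early and CCN genes described here are CCN1, CCN2, FOS, FOSB, JUN, JUNB, EGR1, ATF3, IER2 and IER3, which make up 10 of the 25592 genes in the kidney expression table. They were chosen by name, as known rapid-response genes and their matricellular relatives, and with the measured values in view, because CCN1 had been seen to be lower in every AFB1 library than in every CON library. Differences between AFB1 and CON are therefore given for them as a description, with no p and with nothing read from how many met a cutoff. The libraries came from male Dorper × Small-tailed Han crossed sheep, 4 months of age when the trial began. The CON group ate a total mixed ration, the AFB1 group the same ration with aflatoxin B1 (AFB1, a toxin of Aspergillus moulds) at 500 µg per kg of dry matter. For the AFB1_CUR group the ration held that AFB1 dose and, per kg of dry matter, 800 mg of curcumin (CUR, a phenolic compound of turmeric). Feeding lasted 21 d, 6 sheep formed a group with 2 sheep in a pen, and 5 libraries per group, all labelled kidney, were sequenced, which asks whether AFB1 changed kidney transcription and whether curcumin altered that change. Which pen a library came from is not given in the labels, nor is a sequencing batch, so neither could enter a comparison. Each value below is a gene's FPKM (fragments per kilobase of transcript, scaled to sequencing depth, and thus a level per length) unless a count is named, and the total counts ran from 50255295 to 68747047 per library.

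Immediate early genes are transcribed within minutes of a stimulus such as a growth factor, mechanical stretch or cell stress, without new protein synthesis. Their products are mostly transcription factors, and their messenger RNAs are short-lived. FOS, FOSB, JUN, JUNB and ATF3 encode subunits of the dimeric factor AP-1, EGR1 encodes a zinc finger factor, and IER2 and IER3 encode small proteins that respond to the same stimuli. CCN1 and CCN2 (once called CYR61 and CTGF) encode secreted matricellular proteins that bind integrins and are widely used as readouts of the YAP and TEAD pathway. In the kidney these genes are known to respond to ischemia and tubular injury.

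The library labelled AFB1 replicate 1 stood apart from the other 14, and most results are also given without it. Its summed FPKM over 9 detected hepatocyte markers (ALB, APOA1 and others) was 45007, against 64.0 to 357 in the others. Its sums over markers of the loop and distal tubule, podocytes and endothelium were 17.5, 2.46 and 28.3, against 965 to 2905, 114 to 264 and 231 to 370. The markers therefore went against the kidney label in that library. It was also outside the range of the other 14 for 3 of the 10 members, with CCN2 at 3.10 (others 35.2 to 121) and IER3 at 15.7 (67.1 to 163) below it and FOSB at 1.495 (0.0414 to 0.946) above it. In bulk tissue, fewer cells of a type and less RNA per cell cannot be told apart.

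Over the 14 libraries without AFB1 replicate 1, the members spanned a wide range of levels. IER3, a stress-responsive survival gene, had the highest mean at 101 ± 27.5 FPKM (SD, n = 14), followed by CCN2 at 70.5 ± 27.5. JUNB, EGR1, CCN1 and JUN formed a middle group at 22.6 ± 10.3, 21.7 ± 22.1, 19.96 ± 16.3 and 18.7 ± 7.58, and neighbours in this group did not keep their order from library to library. EGR1 exceeded CCN1 in 7 of 14 libraries, and CCN1 exceeded JUN in 5 of 14. FOS averaged 11.6 ± 14.6, above IER2 at 8.86 ± 1.82 by its mean but in only 4 of 14 libraries. ATF3 stood at 4.35 ± 2.07. FOSB was lowest at 0.275 ± 0.274, from counts of 12 to 243, and did not reach 1 FPKM in the 5 libraries needed to enter the tests, so 9 of the 10 members were tested. The annotated IER2 locus spans 36266 bases and 24 transcripts, which enters its level per length.

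CCN1 (chromosome 1, 62636068 to 62638968, plus strand, the coordinates of the deposited table, which are those of the RefSeq annotation of ARS-UI_Ramb_v3.0) was the member by which the set was chosen. In CON replicates 1 to 5 it was at 36.8, 43.9, 58.2, 14.4 and 17.1 FPKM. In the AFB1 group it was at 6.99 in replicate 1 and at 11.7, 7.23, 6.39 and 6.63 in replicates 2 to 5. In the AFB1_CUR group it was at 17.5, 31.7, 8.48, 8.29 and 11.1. The highest AFB1 library thus lay just under the lowest CON library, while AFB1_CUR overlapped both groups, with 2 of its libraries within the CON range and the other 3 within the AFB1 range. The group means were 34.1 ± 18.5 (SD, n = 5), 7.78 ± 2.19 (SD, n = 5) and 15.4 ± 9.85 (SD, n = 5) for CON, AFB1 and AFB1_CUR, and the AFB1 mean without replicate 1 was 7.98 ± 2.47 (SD, n = 4). The log2 fold change of AFB1 against CON was -1.98 ± 0.42 (SE) with all libraries and -2.10 ± 0.45 without AFB1 replicate 1.

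**Figure D1:**
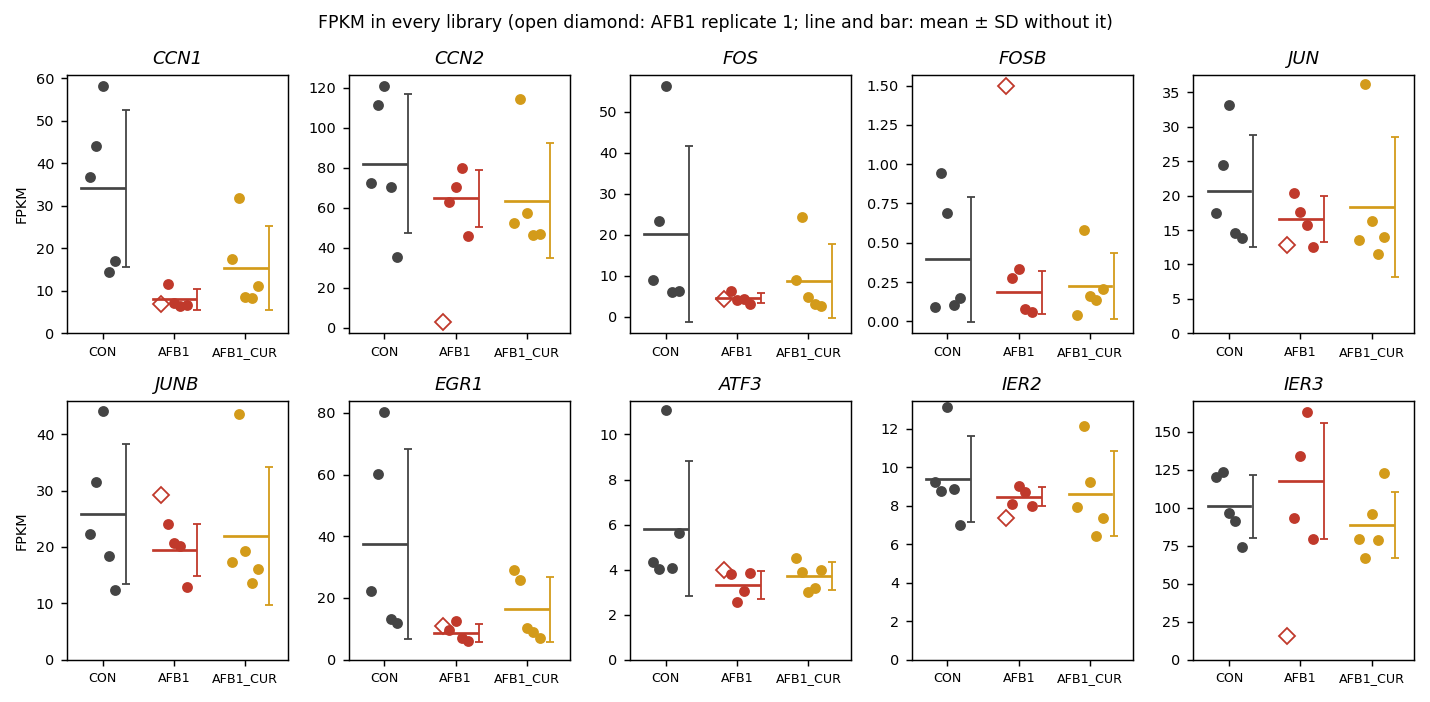
FPKM (linear axes) of each of the 10 genes in all 15 libraries by group, in replicate order within a group; lines and bars are the mean ± SD, with AFB1 replicate 1 (open diamond) left out of them. The AFB1 libraries of CCN1 sit between 6.39 and 11.7, below the 5 CON libraries at 14.4 to 58.2, whereas CCN2, JUN, JUNB, IER2 and IER3 overlap between groups.

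FOS, the partner of JUN proteins in AP-1, was at 8.93, 23.4, 56.1, 6.05 and 6.36 FPKM in the CON libraries. It was at 4.44 in AFB1 replicate 1 and at 6.22, 4.14, 4.37 and 3.22 in the other AFB1 libraries. The AFB1_CUR libraries were at 9.02, 24.3, 4.89, 3.07 and 2.65, so this group held both a level like CON replicate 2 and the lowest FOS level of the series. EGR1 followed a similar course, at 22.1, 60.2, 80.2, 13.3 and 11.8 in CON and at 29.1, 25.9, 10.3, 8.86 and 7.08 in AFB1_CUR. In AFB1 it was at 10.8 in replicate 1 and at 9.69, 12.5, 6.91 and 5.88 in replicates 2 to 5. For FOS and EGR1 the groups just overlapped, since the highest AFB1 values (6.22 and 12.5) lay above the lowest CON values (6.05 and 11.8). The log2 fold changes of AFB1 against CON were -2.001 ± 0.69 (SE) for FOS and -1.83 ± 0.57 for EGR1, and -2.18 ± 0.75 and -2.10 ± 0.60 without AFB1 replicate 1. Without CON replicate 3, the library with the highest level of both genes, they were -1.13 for FOS and -1.33 for EGR1. FOS then missed the p cutoff of a call but not the fold cutoff.

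ATF3, a stress-induced repressor and AP-1 partner, was at 4.32, 4.02, 11.1, 4.06 and 5.64 FPKM in CON and at 4.51, 3.90, 3.00, 3.17 and 3.98 in AFB1_CUR. In AFB1 it was at 3.96 in replicate 1 and at 3.81, 2.58, 3.04 and 3.86 in the others. Its AFB1 libraries also lay below every CON library, but by a narrow margin, since 3.96 and 4.02 were the nearest values. Its log2 fold change of AFB1 against CON was -0.56 ± 0.31 (SE), or -0.81 ± 0.29 without AFB1 replicate 1 and -0.19 without CON replicate 3. ATF3 shares 3931 bases with LOC105607667 on the opposite strand, a gene at 0 to 0.696 FPKM. The strand setting of the counting is not given, so whether reads of such a pair were kept apart is not known.

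JUN and JUNB, which dimerize with FOS proteins, differed less between groups. JUN ranged from 13.8 to 33.1 FPKM in CON (median 17.5), from 12.5 to 20.4 in AFB1 (15.7, with replicate 1 at 12.8) and from 11.5 to 36.2 in AFB1_CUR (13.9). JUNB ranged from 12.4 to 44.2 in CON (22.4), from 12.95 to 29.1 in AFB1 (20.7, with replicate 1 the highest) and from 13.5 to 43.6 in AFB1_CUR (17.3). The groups overlapped widely for both, and in the AFB1_CUR group replicate 2 was the highest for each, above the other 4 by a wide gap. FOSB, a FOS relative, was under 1 FPKM in all libraries but AFB1 replicate 1, with its next highest levels in CON replicates 2 and 3 (0.946 and 0.692) and AFB1_CUR replicate 2 (0.580).

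CCN2, unlike CCN1, overlapped between CON and AFB1. It was at 72.2, 112, 121, 70.6 and 35.2 FPKM in CON, at 62.7, 70.6, 79.7 and 45.8 in AFB1 replicates 2 to 5, and at 52.4, 114, 57.5, 46.5 and 46.7 in AFB1_CUR. Its AFB1 levels lay within the CON range apart from the 3.10 of AFB1 replicate 1, and the log2 fold change of AFB1 against CON moved from -0.64 ± 0.51 (SE) to -0.35 ± 0.31 without that library. CCN2 shares 647 bases with LOC105612881 on the opposite strand, a gene at 0.0343 FPKM or less in every library. IER3 was at 73.9 to 123 in CON, 79.3 to 163 in AFB1 replicates 2 to 5 and 67.1 to 123 in AFB1_CUR, and its log2 fold change of AFB1 against CON was -0.03 ± 0.35, or 0.22 ± 0.23 without AFB1 replicate 1. IER2 varied least, between 6.45 and 13.1 over all libraries, with a log2 fold change of -0.04 ± 0.18. That value was -0.16 ± 0.17 without AFB1 replicate 1 and 0.11 ± 0.17 without CON replicate 3. The IER2 count pools the 24 annotated transcripts of the locus, so which of them it reflects cannot be told. IER2 overlaps LOC101103232 on the opposite strand over 1956 bases, and that gene was at 2.00 to 57.7 FPKM.

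Calls followed the study's own screening (unadjusted p under 0.05, fold change over 1.5) and came from edgeR's quasi-likelihood test across 13193 genes. Between AFB1 and CON, 1.01% of all tested genes were called lower and 3.84% higher. Of the 9 members, CCN1, FOS and EGR1 met these cutoffs on the lower side and 0 on the higher side, which describes how the set was chosen and is no result about it. Without AFB1 replicate 1, ATF3 met them too, where 1.10% of all genes were called lower and 0.652% higher. Levels in the AFB1 group lay wholly below CON for CCN1, by the choice itself, and for 1 of the other 8 members (ATF3), and for 0.872% of all tested genes, or 1.02% without AFB1 replicate 1. They lay wholly above it for 0 members, and for 0.144% and 0.515% of all tested genes. The median log2 fold change of the members was -0.56, against 0.03 over all genes tested, and -0.42 against 0.02 without that library. Without CON replicate 3, the highest library for most members, it was -0.19 against 0.03. With Benjamini-Hochberg adjustment edgeR called 0 of the tested genes, with 1071 at an unadjusted p under 0.05, DESeq2 called 7 and limma 0.

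Between AFB1_CUR and CON, which shares the CON libraries with the comparison above, the log2 fold changes of all 9 members were negative. CCN1, by which the set was chosen, is among them, and 49.4% of all tested genes were negative. The median of the members was -0.46 against 0.00 over all tested genes. It was -0.27 without CON replicate 3 and -0.69 without AFB1_CUR replicate 2. EGR1 was lower in AFB1_CUR by -1.26 ± 0.56 (SE, edgeR's quasi-likelihood test, unadjusted p = 0.0411, adjusted p = 0.9996) and ATF3 by -0.71 ± 0.31 (unadjusted p = 0.0360, adjusted p = 0.9996). CCN1, for which no p is given because the CON libraries chose it, had a log2 fold change of -1.24 ± 0.41. The p values of the other members use the same CON libraries and are not free of that choice. Of the 8 tested members other than CCN1, 2 were thus called lower and 0 higher, where 0.243% of all tested genes were called lower and 0.750% higher. The count was also 2 of 8 without AFB1 replicate 1, where the shares were 0.576% and 1.06%. The members were chosen with the values of these CON libraries in view. EGR1 and ATF3 also followed CCN1 over the 14 libraries without AFB1 replicate 1 (Spearman's rho 0.88 and 0.78). The count therefore describes the set and is no result about it. FOS had a log2 fold change of -1.31 ± 0.67 and did not pass (edgeR, unadjusted p = 0.0702), but passed in 4 of 23 settings, among them DESeq2, and its fold change ran from -2.03 without AFB1_CUR replicate 2 to -0.44 without CON replicate 3. The other 5 members lay between -0.46 ± 0.51 (CCN2) and -0.21 ± 0.18 (IER2). Of these, JUN moved from -0.27 to -0.60 without AFB1_CUR replicate 2, the only setting of the 23 in which it was called (edgeR, unadjusted p = 0.0218, adjusted p = 0.9999), and to -0.04 without CON replicate 3. When 1 library was left out, CCN2 ran from -0.70 to -0.27 and JUNB from -0.65 to -0.04. IER2 then ran from -0.30 to -0.06 and IER3 from -0.38 to -0.13. The levels of AFB1_CUR overlapped those of CON for all 9 members, while 0.189% of all tested genes lay wholly below CON and 0.531% wholly above it. EGR1 and ATF3 were no longer called without CON replicate 3, where their log2 fold changes were -0.76 and -0.35. They also missed the threshold of p without AFB1_CUR replicate 3, 4 or 5, with log2 fold changes of -1.14, -1.10 and -1.07 for EGR1 and -0.65, -0.67 and -0.73 for ATF3, close to those with all libraries. In all, EGR1 was called in 15 of 23 settings and ATF3 in 14. Limma on either scale called neither, with -0.97 and -1.02 for EGR1 and -0.45 and -0.53 for ATF3. EGR1 was also not called with only the compared libraries (-1.27) or without CON replicate 2 (-1.06). ATF3 was also not called with the replicate block (-0.68), without CON replicate 5 (-0.72) or without AFB1_CUR replicate 2 (-0.69). After adjustment edgeR called 0 genes of all tested here, with 360 at an unadjusted p under 0.05, DESeq2 called 1 and limma 0.

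Between AFB1_CUR and AFB1, 0 of the 9 members passed the thresholds, where 0.591% of all tested genes were called higher and 3.39% lower (0.409% and 0.531% without AFB1 replicate 1). CCN1 had a log2 fold change of 0.74 ± 0.41 (SE), FOS of 0.69 ± 0.66 (edgeR, unadjusted p = 0.317) and EGR1 of 0.57 ± 0.55 (unadjusted p = 0.322), and without AFB1 replicate 1 they were 0.86, 0.86 and 0.84. A p that misses the threshold does not show that the groups were alike. The levels of AFB1_CUR and AFB1 overlapped for all 9 members, with and without AFB1 replicate 1, while 0.0227% of all tested genes lay wholly lower in AFB1_CUR and 0.470% wholly higher (0.114% and 0.568% without that library). Without AFB1_CUR replicate 2 the values were 0.39 for CCN1 and -0.03 for FOS, and without AFB1_CUR replicate 1 it was 0.19 for EGR1. The other members ranged from -0.28 (JUNB) to 0.18 (CCN2), and each of them changed sign when some library was left out or on the limma scale. In this comparison edgeR called 0 genes after adjustment, with 765 at an unadjusted p under 0.05, DESeq2 called 2 and limma 0.

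**Figure D2:**
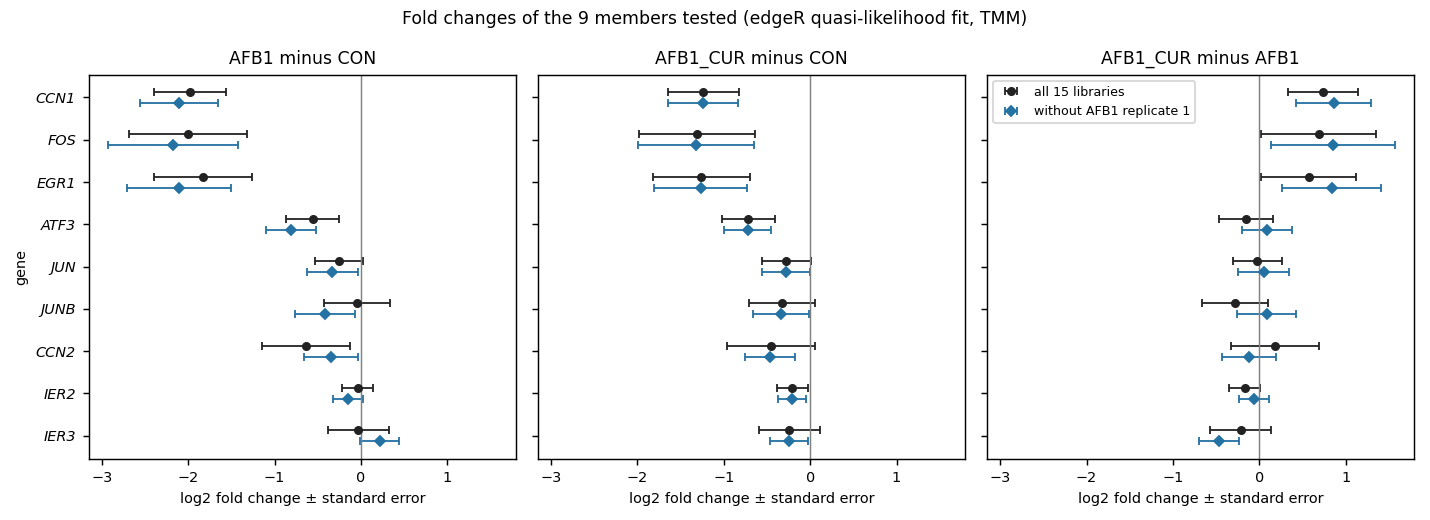
Log2 fold change ± standard error of the 9 tested genes in each comparison, from the edgeR fit with all 15 libraries (circles) and without AFB1 replicate 1 (diamonds). CCN1, FOS and EGR1 stand at -1.98, -2.001 and -1.83 in AFB1 against CON and at -1.24, -1.31 and -1.26 in AFB1_CUR against CON. IER3 in AFB1_CUR against AFB1 moves from -0.21 to -0.46 without AFB1 replicate 1.

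Of the 9 tested members, 8 varied more between the libraries of a group than the median gene did, and IER2 did not. CPM here is the read count scaled to the library total after TMM normalization. Within groups, over 14 libraries, the residual SD of log2 CPM was 1.12 for FOS, 0.94 for EGR1 and 0.70 for CCN1. The median over the 13193 tested genes was 0.28. FOS, EGR1 and CCN1 lay at the 97.5th, 95.9th and 90.8th percentiles of these genes. JUNB, CCN2, JUN, ATF3 and IER3 had residual SDs of 0.55, 0.52, 0.46, 0.44 and 0.37. IER2 lay at 0.27, just below the median. With all 15 libraries FOS and CCN1 lay at the 90.9th and 78.9th percentiles, as the spread of all genes rose with AFB1 replicate 1.

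High and low levels came from the same libraries for most members. CON replicate 3 was the highest of the 14 libraries for 7 of the 10 members and among the top 3 for 9. CON replicate 2 was among the top 3 for 8 members and AFB1_CUR replicate 2 for 6. AFB1 replicate 5 and AFB1_CUR replicate 4 were above the median of the 14 libraries for 0 of the 10. High libraries thus occurred in the CON and AFB1_CUR groups, and none of the 4 AFB1 libraries was among the top 3 for any member but IER3.

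**Figure D3:**
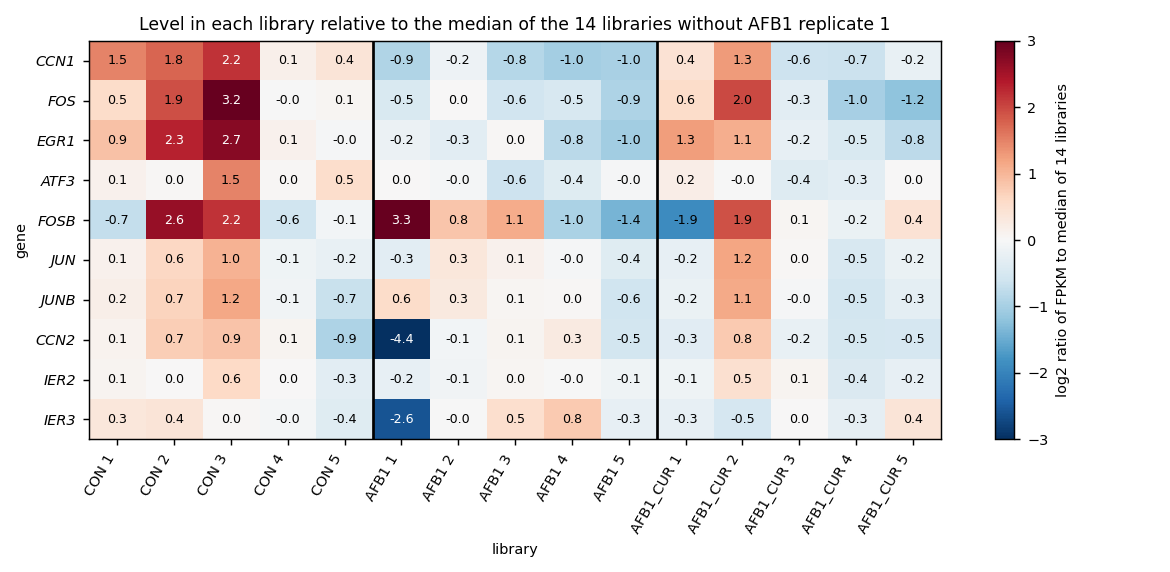
Log2 ratio of each gene's FPKM to its median over the 14 libraries without AFB1 replicate 1, for every library (columns) and gene (rows). CON replicates 2 and 3 and AFB1_CUR replicate 2 are high across most rows, IER3 does not share the pattern, and AFB1 replicate 1 is low for CCN2 and IER3 and high for FOSB.

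Correlations over these 14 libraries, on log2(FPKM + 1), are a description, since the points share their library and its depth. CCN1 correlated with FOS at a Pearson's r of 0.90 (Spearman's rho 0.87, n = 14) and with EGR1 at 0.91 (rho 0.88). Without the 2 libraries farthest from the CCN1 median, CON replicates 2 and 3, r was 0.81 and 0.82. CCN1 and CCN2 had r = 0.63 (rho 0.49), which fell to 0.33 without those 2 libraries and so rested largely on them, and r = 0.73 with group means removed. CCN2 instead lay closest to JUNB (r = 0.94, rho 0.92), and JUN to JUNB (r = 0.97, rho 0.95). Of 45 pairs of members, 31 had r over 0.5 (24 by rho), and 29 did after the group means were removed. The 9 pairs with IER3 had a median r of -0.02 against 0.74 for the other 36 pairs. With AFB1 replicate 1 included, 23 of the 45 pairs exceeded 0.5.

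**Figure D4:**
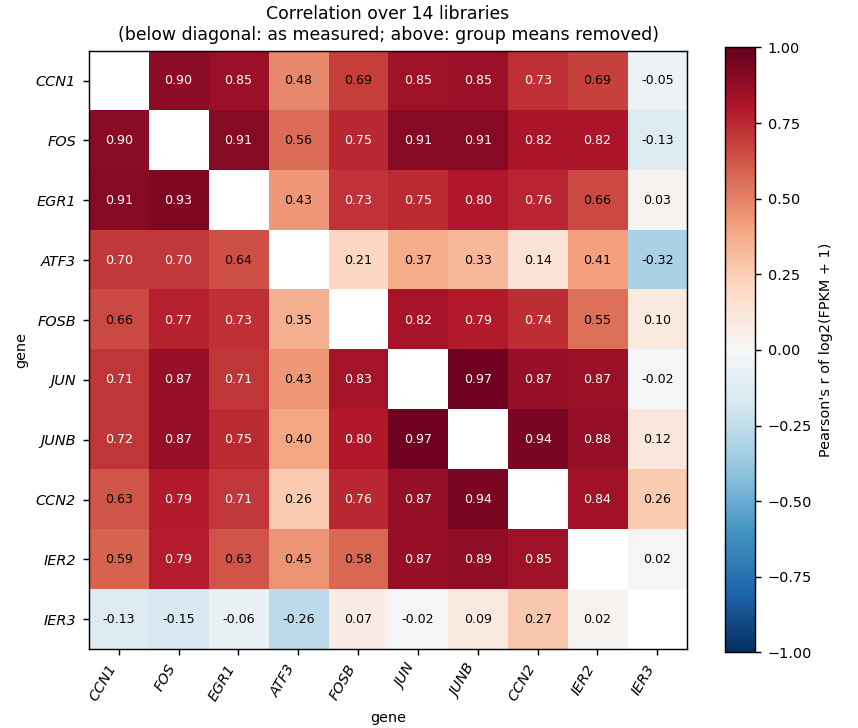
Pearson's r of log2(FPKM + 1) for each pair of the 10 genes over 14 libraries, as measured below the diagonal and with group means removed above it. CCN1, FOS and EGR1 correlate at 0.90 to 0.93 as measured, JUN, JUNB, CCN2 and IER2 at 0.85 to 0.97, FOS with JUN and JUNB at 0.87, and IER3 lies between -0.26 and 0.27 with every other gene.

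**Figure D5:**
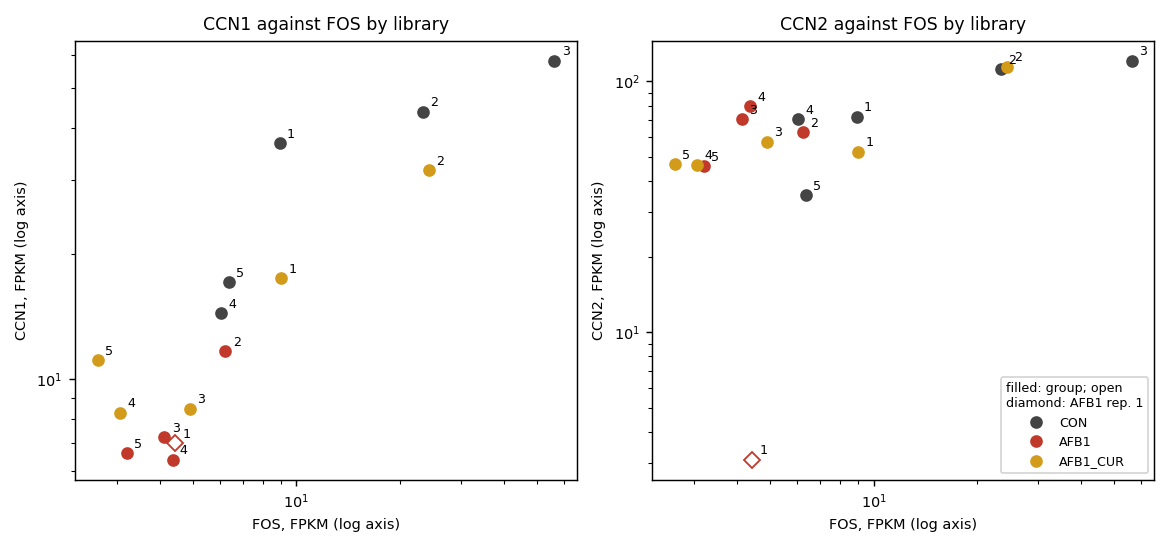
FPKM of CCN1 (left) and CCN2 (right) against FPKM of FOS, on log axes, with each of the 15 libraries as a point labelled by its replicate number. In the left panel the libraries lie along a rising band (r = 0.90 over 14 libraries), and in the right panel AFB1 replicate 1 is far below the others.

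Genes outside the set were ranked by Spearman's rho with CCN1 and with FOS over the same 14 libraries. Among those most like CCN1 were GIGYF1 (0.88), RHOF (0.86), GPR89A (0.86) and DPH1 (0.85), and those most like FOS were CEP162 (0.94), TARBP1 (0.88), GIGYF1 (0.88), SUGP2 (0.88) and RERE (0.87). The median rho over 13192 tested genes was 0.08 for each, and 6.04% exceeded 0.5. EGR1 and FOS had a rho with CCN1 of 0.88 and 0.87, similar to the closest genes outside the set. These genes ranged little in level, GIGYF1 for example from 8.17 to 13.8 FPKM, against 6.39 to 58.2 for CCN1.

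Other genes of the pathway were taken from lists of known relatives. The 10 AP-1 relatives, among them FOSL1, FOSL2, JUND and ATF2, had 0 called genes in every comparison, with log2 fold changes of AFB1 against CON from -0.54 to 0.49. Of 12 other immediate early transcription factors, 7 were tested. NR4A1, an orphan nuclear receptor induced with FOS and EGR1, was at 3.23, 5.14, 14.3, 1.36 and 1.75 FPKM in CON, at 0.977 in AFB1 replicate 1, at 1.52, 1.87, 1.68 and 1.05 in AFB1 replicates 2 to 5 and at 2.39, 3.46, 1.95, 1.35 and 1.61 in AFB1_CUR. It was lower in AFB1 than in CON by -1.74 ± 0.51 (SE, edgeR's quasi-likelihood test, unadjusted p = 0.00437, adjusted p = 0.596), by -1.76 ± 0.56 without AFB1 replicate 1, and by -0.88 ± 0.33 without CON replicate 3, where it still passed. It was lower in AFB1_CUR than in CON by -1.33 ± 0.51 (edgeR, unadjusted p = 0.0196, adjusted p = 0.9996). That call was lost without CON replicate 3 (-0.48), with limma on either scale (-0.65 and -0.78) and with the replicate block (-0.95). MYC, a growth-promoting factor, was higher in AFB1 by 0.94 (unadjusted p = 0.0392), but at 0.51 it did not pass without AFB1 replicate 1. KLF2, KLF4 and KLF6 had log2 fold changes of -0.42, -0.45 and 0.26, or -0.26, -0.18 and 0.24 without AFB1 replicate 1, and did not pass.

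Of 16 immediate early feedback genes, which encode phosphatases, RNA decay factors and signalling inhibitors, 2 were called higher in AFB1 than in CON. DUSP5, a phosphatase that acts on ERK, had a log2 fold change of 0.95, and SOCS3, an inhibitor of cytokine signalling, of 2.22. SOCS3 was at 18.6 FPKM in AFB1 replicate 1 and at 1.04 to 3.54 in the other AFB1 libraries, and 0 of the 16 genes were called without that library. DUSP5, BTG2 and SOCS3 were called lower in AFB1_CUR than in AFB1 with all libraries (-0.98, -1.56 and -1.78), and none of these without AFB1 replicate 1. The 13 tested genes of the YAP and TEAD pathway, such as YAP1, WWTR1, LATS1 and LATS2, had 0 calls in each comparison and a median log2 fold change of 0.02 in AFB1 against CON. The other CCN genes were low, with CCN3 and CCN4 tested and not called (log2 fold changes of AFB1 against CON of -0.30 and -0.68, and of -0.06 and -0.43 without AFB1 replicate 1). Of 9 SRF cofactors and targets, 0 were called between AFB1 and CON, and ACTA2, smooth muscle actin, was called higher in AFB1_CUR than in AFB1 (0.74), but not without AFB1 replicate 1 (0.54). Among 8 inducible heat shock genes, HSPA1A, a chaperone, was at 166 to 259 FPKM in CON and 69.6 to 135 in AFB1 (123 in replicate 1). It was lower by -0.68 ± 0.25 (edgeR, unadjusted p = 0.0155, adjusted p = 0.596) and by -0.89 ± 0.22 without AFB1 replicate 1 (edgeR, adjusted p = 0.910). Without AFB1 replicate 3 it was lower by -0.51 and missed the fold threshold. The other 7 heat shock genes were not called. In AFB1_CUR, HSPA1A was at 131 to 277, higher than in AFB1 by 0.65 ± 0.22 without AFB1 replicate 1 (edgeR, unadjusted p = 0.0113), and not called with all libraries (0.45 ± 0.25). The smallest adjusted p of any gene in that edgeR comparison without AFB1 replicate 1 was 0.439.

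Markers of other cell types varied with the groups in part. Of 8 tested proximal tubule markers, 7 were lower in AFB1 than in CON and 1 was higher. Their median log2 fold change was -0.55, or -0.33 without AFB1 replicate 1. All 8 were lower in AFB1_CUR than in CON (median -0.25), and 0 of the 8 were called in either comparison. All 7 tested hepatocyte markers (ALB, APOA1, APOB, FGB, SERPINA1, TF and TTR) were, with all libraries, called higher in AFB1 against CON and lower for AFB1_CUR against AFB1, and without AFB1 replicate 1 the first count was 0 and the second 1 (ALB). CSF1R, a macrophage receptor, was called higher in AFB1 than in CON, but at 0.82 not without AFB1 replicate 1. DCN, the matrix proteoglycan decorin, was called higher in AFB1_CUR than in AFB1 (0.70), but at 0.54 not without that library. Summed over the stromal and smooth muscle markers, FPKM was 253 to 473 in CON, 225 to 407 in AFB1 without replicate 1 and 266 to 785 in AFB1_CUR, and over the leukocyte markers it was 10.3 to 40.1, 19.7 to 113 and 26.9 to 162. AFB1_CUR replicate 2, one of the libraries high for most members, held the highest stromal, leukocyte and adrenal sums of its group at 785, 162 and 16.1, against at most 447, 39.6 and 1.68 in the other 4. AFB1 replicate 2, with the highest CCN1 level of the AFB1 group, had leukocyte and adrenal sums of 113 and 6.07, the highest of its group. For correlations each list had a score, the mean of log2(FPKM + 1) over its markers, in place of the summed FPKM. Over the 14 libraries CCN1 had r = 0.41 with the stromal score, 0.15 with the leukocyte score, 0.14 with the endothelial score, 0.20 with the podocyte score, 0.23 with the adrenal score, -0.11 with the proximal tubule score and 0.47 with the total count. With group means removed, CCN1 had r = 0.71 with the leukocyte score, 0.63 with the adrenal score, 0.60 with the stromal score, 0.38 with the endothelial score, 0.30 with the podocyte score and -0.58 with the proximal tubule score. FOS had r = 0.60 with the leukocyte score and -0.64 with the proximal tubule score on that scale. The part of cell composition and of depth in the differences of CCN1, FOS and EGR1 was not tested.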

How the data were processed

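Libraries labelled kidney (3 groups of 5, grouped by their titles) were prepared from poly(A) RNA with a dUTP strand-marking protocol and sequenced as paired reads of 150 bases. The authors removed adapters and low-quality reads, aligned the rest with HISAT2 2.2.1 and screened genes with DESeq2; the submitters' processing notes also list cutadapt 1.9, StringTie 2.1.6 and edgeR. The deposited table gives a raw read count and, normalized by the authors to length and depth, an FPKM value per gene and library. The sources used here do not give the genome build or the strand setting of the counting. The positions of all 10 members, and of 24848 of 24947 genes matched by symbol (99.6%), were identical to those of the RefSeq annotation of ARS-UI_Ramb_v3.0.

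The counts as deposited were analysed in R 4.3.3 with edgeR 4.0.16 (TMM normalization, quasi-likelihood test, group as the only term, all 15 libraries in the same fit) for the 13193 genes with at least 1 FPKM in at least 5 libraries. Each fit was repeated without AFB1 replicate 1. A call is an unadjusted p under 0.05 with a fold change above 1.5, and Benjamini-Hochberg adjusted p values were counted apart. The SE is the log2 fold change divided by the square root of the F statistic. Correlations used log2(FPKM + 1). Alternatives were DESeq2 1.42.0 size factors, DESeq2 itself, no filter on low values, limma 3.58.1 on log2(FPKM + 1) and log2(FPKM + 0.1), a replicate block, only the libraries compared, and each library left out. The scripts were tested on simulated data.

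The members and gene lists were chosen with earlier results of these data known. Genes named are all members, list genes that were called in any comparison plus up to 4 examples per list, and the 5 genes most like CCN1 and FOS, of which 1 is not reported here. A spread with all 15 libraries, and the alternatives for NR4A1 and HSPA1A, were added after the data were seen. No library shared its counts with another. The labels do not state that each library came from a separate sheep, so p values measure only the spread between these libraries. No sequences are shown.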

Additional observations from a re-analysis of the deposited data

Results flagged for a closer look

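Of 30 sets of 5 libraries (10 genes in 3 groups), 6 had a highest library whose gap to the next, divided by the range of the group, exceeded Dixon's 95% critical value of 0.71, and chance gives about 1 in 20 for a single set. The sets are not independent, since 3 of the 6 come from AFB1_CUR replicate 2 and these genes correlate with each other, so no chance count is given for them together. In AFB1_CUR replicate 2, CCN2 was at 114 FPKM against 46.5 to 57.5 in the other 4 libraries (gap over range 0.839), JUN at 36.2 against 11.5 to 16.3 (0.805) and JUNB at 43.6 against 13.5 to 19.3 (0.808). The same library had the highest summed adrenal, leukocyte and stromal markers of its group (16.1, 162 and 785 FPKM), and their part in these levels was not tested. CCN1 was at 11.7 FPKM in AFB1 replicate 2 against 6.39 to 7.23 (0.841), which still left it below the lowest CON library. That library had the highest summed leukocyte and adrenal markers of the AFB1 group (113 and 6.07 FPKM), and their part in this level was not tested. FOSB was at 1.495 in AFB1 replicate 1 against 0.0587 to 0.331 (0.811), and ATF3 was at 11.1 in CON replicate 3 against 4.02 to 5.64 (0.770).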

How the results depend on the processing

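The count of all genes called between AFB1 and CON (639) was 1778 with no filter on low values, 258 and 351 with limma on log2(FPKM + 1) and log2(FPKM + 0.1), and 327 with the replicate number as a block, and it ranged from 231 (without AFB1 replicate 1) to 959 (without AFB1 replicate 5). For AFB1_CUR against AFB1 (525) it was 1597, 184 and 291 in the same settings, 302 with only the libraries compared, 175 with the replicate block, and 124 (without AFB1 replicate 1) to 924 (without AFB1 replicate 2). For AFB1_CUR against CON (131) it was 699 without the filter, 50 with limma on log2(FPKM + 1), 225 with only the libraries compared, and 65 (without AFB1_CUR replicate 2) to 216 (without AFB1 replicate 1), with 202 without AFB1_CUR replicate 4. On log2(FPKM + 1) the median of all genes shifted by -0.10 in AFB1 against CON and by 0.17 in AFB1_CUR against AFB1, and the calls split as 43 higher and 215 lower in the former, against 506 and 133 in the count test, and as 154 higher and 30 lower in the latter, against 78 and 447. Of the members, 1 was called in AFB1_CUR against CON by limma on either scale, and 1 to 4 when a library was left out, with 1 without CON replicate 3 or AFB1_CUR replicate 3, 4 or 5; in each setting with a count of 1 that member was CCN1, by which the set was chosen, so 0 of the other 8 were called. In AFB1_CUR against AFB1, limma gave positive values for JUN (0.10 on either scale), ATF3 (0.0838 and 0.11), IER2 (0.0316 and 0.0323) and IER3 (0.18 and 0.19), all negative in the count test, and leaving out a library gave ranges of -0.12 to 0.39 for CCN2, -0.0285 to 0.92 for FOS, -0.34 to 0.0897 for JUN, -0.61 to 0.0851 for JUNB, -0.28 to 0.0865 for ATF3 and -0.46 to 0.0522 for IER3. The cause of these moves was not tested. With the replicate block, 1 of the 8 members other than CCN1, EGR1, was called in AFB1_CUR against CON. Of 13 same-numbered pairs of libraries, 5 correlated over 0.1, and 4 of 14 libraries lay closest to a library of the same number. The median correlation was 0.076 for same-numbered pairs and -0.029 for other pairs. Whether the numbers pair the samples cannot be told from these values, and it was not tested.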
